A study of Mus musculus with 281 samples.

Results

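Mpo encodes myeloperoxidase, and its transcript is 1 of the 43280 symbols of a single-cell RNA table from mouse bone marrow; it was chosen by its symbol as the single member and followed over every cell of the table. The cells came from C57BL/6 bone marrow, were amplified by SMART-seq2 and were each deposited as a separate sample. CMP (47 cells) were sorted as Lin- Ckit+ Sca-1- CD34+ CD16/32lo, and Ly6C-GMP (45 cells) and Ly6C+GMP (95 cells in one title run and 10 in another) as CD16/32hi cells of that compartment without and with Ly6C. The 22 proneu cells carried the Ly6C+GMP gate in 21 cases and no gate in 1. The 31 tpMo cells were Lin- CD115+ ckit- CXCR4+ Ly6C+, and the 31 preNeu cells were Lin- Gr1+ CD11b+ CD115- SiglecF- ckit+ CXCR4+. No label names an animal or culture, so each label counts as 1 sample. Values over cells are therefore described with their SD and carry no test, and no cell was treated as a replicate of a condition. How the proneu label was assigned is not stated in the sources used here, and if it rested on the same transcriptomes, differences of proneu from Ly6C+GMP hold partly by construction.

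Myeloperoxidase is the heme enzyme of the azurophil (primary) granule. It uses hydrogen peroxide, which derives from the NADPH oxidase, to make hypochlorous acid in the phagosome of neutrophils. The protein is made on the rough endoplasmic reticulum, where the precursor binds calreticulin and calnexin, takes up heme and is then cleaved and packed with serine proteases such as elastase, proteinase 3 and cathepsin G. Granule proteins are made in successive windows of granulocyte development, the primary granule set in promyelocytes and the secondary granule set later, so the mature neutrophil carries much myeloperoxidase protein with little of its mRNA. Monocytes keep a smaller amount.

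The gene lies on the plus strand of chromosome 11 at chr11:87793581-87804413 (GRCm38, GENCODE M21, ENSMUSG00000009350.13), and its main coding transcript has 14 exons. The stretches just upstream of Mpo and of its closest protease partners are shown because these proteases were among the genes most correlated with Mpo in most labels. They are taken from RefSeq promoter windows of the build GRCm38.p6, shortened to end before the first annotated start, because GENCODE places the Mpo start 203 bases before the RefSeq start. Capitals mark GAGGAA, a core of the kind bound by PU.1, the ETS factor of myeloid cells that Spi1 encodes. The Mpo stretch is chr11:87793534-87793580 on the plus strand, Elane is chr10:79886062-79886246 on the plus strand, Prtn3 is chr10:79879417-79879613 on the plus strand and Ctsg is chr14:56102575-56102824 on the minus strand.
Mpo: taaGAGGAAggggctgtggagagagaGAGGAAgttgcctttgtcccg
Elane: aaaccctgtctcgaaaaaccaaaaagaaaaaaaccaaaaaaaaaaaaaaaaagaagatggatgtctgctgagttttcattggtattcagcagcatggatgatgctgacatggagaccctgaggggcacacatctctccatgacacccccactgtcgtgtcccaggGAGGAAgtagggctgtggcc
Prtn3: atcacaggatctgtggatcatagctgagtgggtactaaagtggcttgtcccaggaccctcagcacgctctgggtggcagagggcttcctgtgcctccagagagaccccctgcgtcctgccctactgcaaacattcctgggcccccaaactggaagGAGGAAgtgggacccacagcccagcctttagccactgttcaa
Ctsg: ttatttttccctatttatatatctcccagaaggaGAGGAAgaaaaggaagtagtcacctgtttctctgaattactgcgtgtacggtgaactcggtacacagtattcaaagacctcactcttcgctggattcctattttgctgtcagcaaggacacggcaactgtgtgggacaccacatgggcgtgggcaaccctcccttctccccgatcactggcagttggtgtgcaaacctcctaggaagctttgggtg

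Mpo has GAGGAA at -44 and -21 from its GENCODE start, Elane at -20, Prtn3 at -42 and Ctsg at -216. On either strand, GAGGAA occurs in 28.3% of 32851 RefSeq promoter windows of 300 bases, and in 4.82% at 2 or more places as in the Mpo window. The motif TTGCNNAA of the C/EBP kind occurs in 10.8% of windows and in none of these 4. TGNGGT of the RUNX kind occurs in 45.8% of windows and here in Ctsg only, and AACNG of the MYB kind occurs in 80.3% and in all 4. For Mpo and Elane, AACNG lies only after the GENCODE start, at 38 in Mpo and at 15 and 45 in Elane, outside the stretches shown. These motifs were chosen after the Mpo sequence had been seen, and a match is a description of letters, not a site of binding.

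The table gives TPM, a transcript abundance per transcript length relative to the cell's total, so read depth is unknown and the number of genes at 1 TPM or more, 1487 to 5719 per cell, stands in for it. The titles fall into 4 numbered runs, called H, A, B and C here, whose meaning the labels do not state. CMP and Ly6C-GMP were in H and B, Ly6C+GMP mostly in A, and all preNeu and tpMo and nearly all proneu cells in C. A few cells stood apart from their label: 3 Ly6C-GMP cells had Ngp, which encodes a secondary granule protein, at 1000 TPM or above, as had Ly6C+GMP cell 85 at 46094 TPM, and tpMo cell 24 had 0.5 TPM of Csf1r, which encodes the CD115 of its gate, with 296 TPM of the neutrophil factor Cebpe. They are kept, together with proneu cell 8 and preNeu cell 22 described below, and results that move without them are given both ways. Csf1r was at 1 TPM or more in 22 of 31 tpMo cells, 1 of 22 proneu cells and 0 of 31 preNeu cells, and Ngp averaged 141178 ± 31973 TPM in preNeu (SD over cells, n = 31).

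Mpo was the most abundant transcript of the table, at 22291 TPM on average over all cells, and it was above 0 in every one of them. Its mean was higher at each label from CMP through Ly6C-GMP and Ly6C+GMP to proneu and was low in both tpMo and preNeu. CMP cells held 3.79 TPM at the lowest, 2928 TPM at the median and 33685 TPM at the highest, with a mean of 6682 ± 8793 TPM (SD over cells, n = 47). Ly6C-GMP cells held 31.7, 27758 and 51645 TPM at the same points, with a mean of 27279 ± 11691 TPM (n = 45). Ly6C+GMP cells held 8393, 34369 and 63471 TPM, with a mean of 34287 ± 10619 TPM (n = 95 in run A and 10 in run C). The lowest is cell 85 with high Ngp, and the next held 11531 TPM. The 3 progenitor labels thus overlapped, with the CMP median far below those of both GMP labels.

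Proneu cells held 5647 TPM at the lowest, 48205 TPM at the median and 61821 TPM at the highest, with a mean of 47923 ± 11301 TPM (n = 22). In tpMo the same points were 14.4, 66.3 and 25347 TPM and the mean was 2033 ± 5625 TPM (n = 31). In preNeu they were 10.6, 33.3 and 2826 TPM and the mean was 152 ± 514 TPM (n = 31). The 2 last means rest on few cells: without tpMo cell 24 the tpMo mean was 1256 TPM, and without preNeu cell 22 the preNeu mean was 62.8 TPM. In order of the mean the labels ran proneu, Ly6C+GMP, Ly6C-GMP, CMP, tpMo and preNeu, and the ranges over cells of all neighbours in that order overlapped. The means of Ly6C+GMP and Ly6C-GMP, of CMP and tpMo, and of tpMo and preNeu differed by less than the larger SD over cells of the pair. Within CMP and Ly6C-GMP the runs differed by less than the SD over cells. CMP averaged 5853 ± 8392 TPM for run B against 8286 ± 9597 TPM for run H. Ly6C-GMP averaged 27090 ± 12110 TPM for run B against 27657 ± 11205 TPM for run H. Ly6C+GMP averaged 43289 ± 4794 TPM in the 10 cells of run C and 33339 ± 10631 TPM in the 95 cells of run A.

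**Figure D1:**
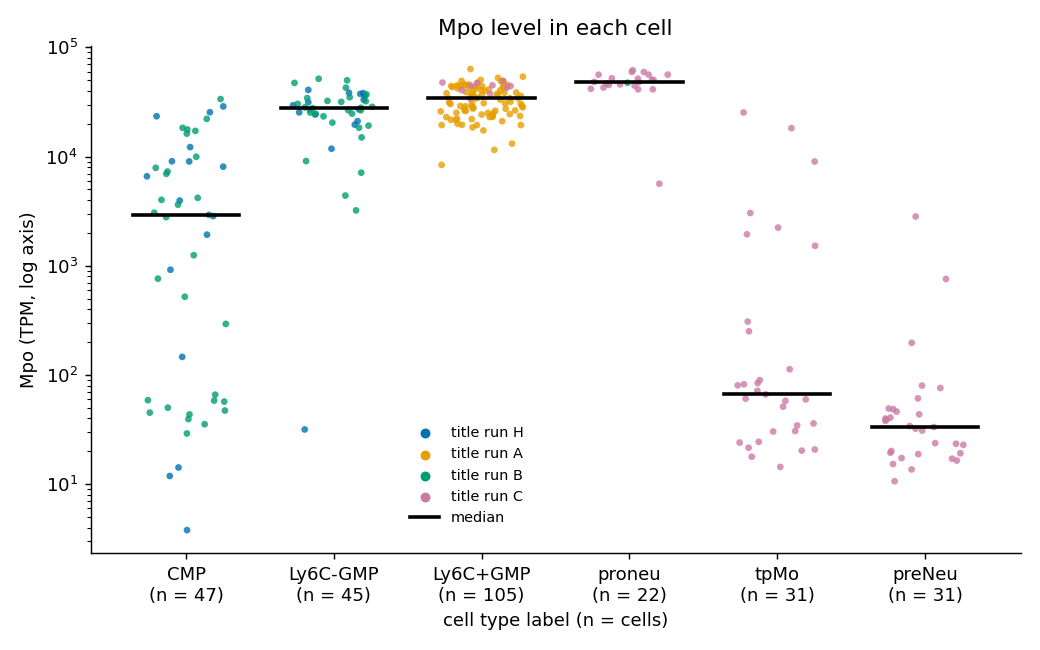
Mpo in each cell, in TPM on a log axis, by cell type label; points are single cells coloured by title run and bars are medians. CMP, tpMo and preNeu span several orders of magnitude, while Ly6C+GMP cells lie between 8393 and 63471 TPM.

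Mpo made up 0.67% of all TPM of the CMP cells, 2.73% of Ly6C-GMP, 3.43% of Ly6C+GMP and 4.79% of proneu, against 0.20% of tpMo and 0.02% of preNeu. It was the most abundant gene of the cell in 9 of 47 CMP, 36 of 45 Ly6C-GMP, 70.5% of Ly6C+GMP and 12 of 22 proneu cells. The same held for 2 of 31 tpMo cells and 0 of 31 preNeu cells, where its median rank was 1793 and 1400. Among genes with a mean of at least 1000 TPM, the coefficient of variation of Mpo over cells was 1.32 in CMP, the fourth highest of 115 genes, against a median of 0.48. It was 0.43 in Ly6C-GMP (median of abundant genes 0.37), 0.31 in Ly6C+GMP (median 0.34) and 0.24 in proneu, the tenth lowest of 114 genes (median 0.42). Over all cells the coefficient of variation thus was lower at each label from CMP to proneu. Within run C it was 0.11 in Ly6C+GMP (n = 10) and 0.24 in proneu (n = 21), so the last step was not present inside the run. The step from Ly6C-GMP to Ly6C+GMP could not be checked in this way, as these labels shared no title run. Without proneu cell 8 the proneu SD was 6363 TPM around a mean of 49936 TPM. In tpMo Mpo had the highest coefficient of variation of 128 genes, 2.77.

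The CMP gate held cells with and without the transcript at a high level. Of 47 CMP cells, 14 were under 100 TPM, 5 between 100 and 1000, 18 between 1000 and 10000 and 10 at 10000 TPM or more, and no cell lay between 65.95 and 146 TPM. At least 100 TPM of Mpo was thus found in 70.2% of CMP cells (Clopper-Pearson 95% interval 55.1 to 82.7%, counting error only). The low cells were not at 0: the 11 such cells of run B held 29.1 to 65.95 TPM, and the 3 of run H held 3.79 to 14.2 TPM. Elane was likewise at 21.5 to 51.4 TPM among the 11 cells of run B and at 0 to 3.12 TPM among the 3 of run H. Among CMP cells the low value thus differed between the title runs, while the 1 Ly6C-GMP cell under 100 TPM, in run H, held 31.7 TPM of Mpo and 32.9 TPM of Elane. Whether it is the cells' own transcript was not tested.

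Several other granule transcripts were present in nested groups of the same CMP cells, though not all were. Prtn3, which encodes proteinase 3, was at 100 TPM or more in 33 cells, of which 31 also had 100 TPM of Mpo. Ctsg, which encodes cathepsin G, reached it in 26 cells, all of them among those with Mpo, and the lowest Mpo among them was 1249 TPM. Elane, which encodes neutrophil elastase, reached it in 14 cells, again all with Mpo, from 4018 TPM of Mpo upwards. Ms4a3, a membrane protein gene of granulocyte and monocyte progenitors, reached it in 5 cells, from 16233 TPM of Mpo upwards. All 10 CMP cells with 10000 TPM of Mpo had 100 TPM of Prtn3, Ctsg and Elane, and 5 of them had 100 TPM of Ms4a3. Cst7, the cystatin F gene, and Prss57 were not nested in this way. Cst7 was at 100 TPM in 21 CMP cells, from 58.3 TPM of Mpo upwards, and in 7 of those 10. Prss57 was at 100 TPM in 8 CMP cells, from 57.03 TPM of Mpo upwards, and in 4 of those 10. Srgn, Nkg7 and Cd63, other genes of the granule list, were not nested either. They were at 100 TPM in 13, 13 and 7 of the 14 CMP cells under 100 TPM of Mpo. Among the 33 CMP cells with 100 TPM of Mpo, they were at that level in 33, 22 and 10.

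The 3 highest CMP cells show how uneven this still was at the top. Cell 36 had 33685 TPM of Mpo with 21323 TPM of Elane, and cell 2 had 28828 TPM of Mpo with 15102 TPM of Elane. Cell 14 had 25493 TPM of Mpo but only 598 TPM of Elane. Because the genes differ in their final level, the count was repeated at 1% of each gene's proneu median. By that measure 34 CMP cells had Prtn3, 31 had Mpo, 26 had Ctsg, 10 had Elane and 6 had Ms4a3.

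**Figure D2:**
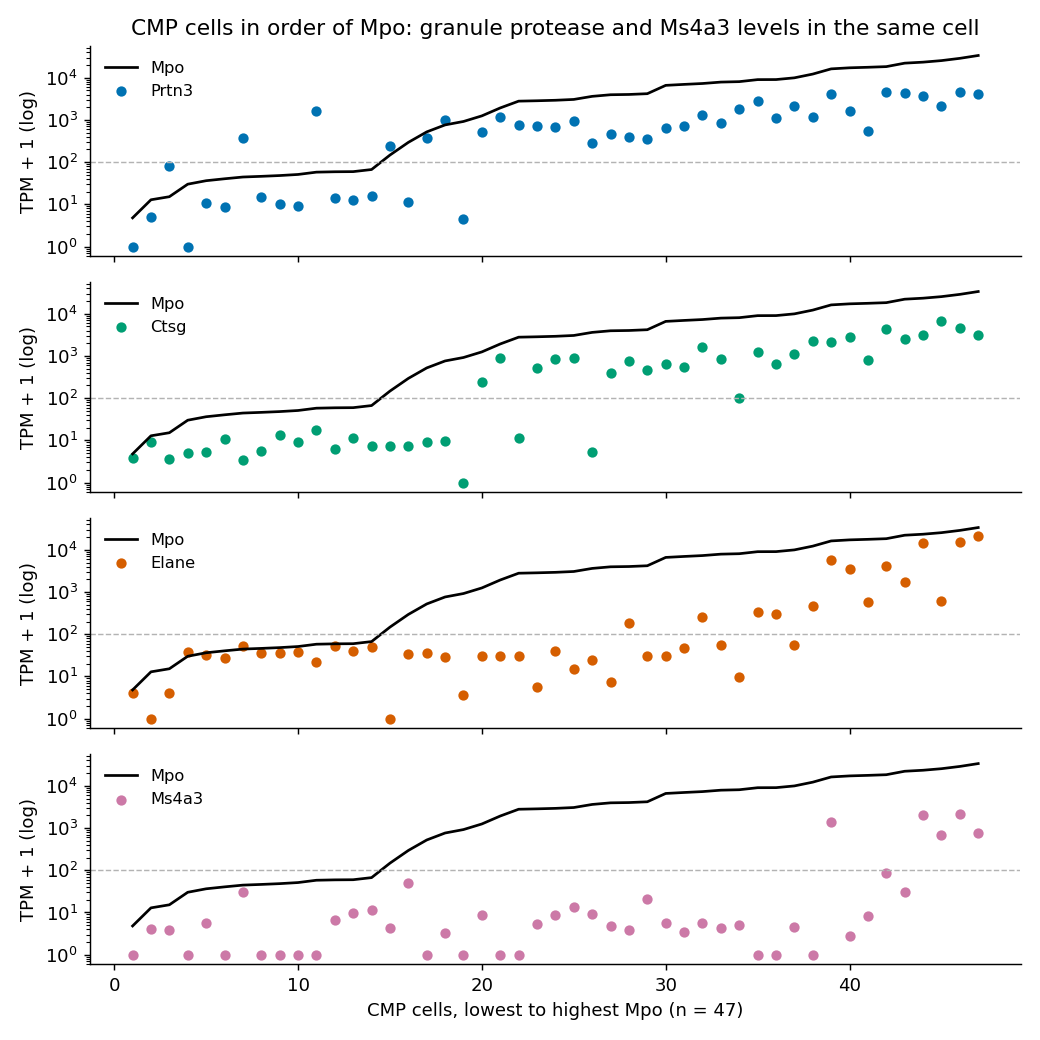
The 47 CMP cells in order of Mpo (black line); points give Prtn3, Ctsg, Elane and Ms4a3 in the same cell, as TPM + 1 on a log axis, and the dashed line stands at 100 TPM. Prtn3 is at 100 TPM or more in 33 cells, Ctsg in 26, Elane in 14 and Ms4a3 in 5, the last 3 only in cells with 100 TPM of Mpo.

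Of the 47 CMP cells, 33 had 100 TPM of Mpo and 14 did not. Most erythroid and megakaryocyte genes sat mainly in those 14 cells, but mast cell and basophil genes did not. At 100 TPM, Gata1, the erythroid and megakaryocyte factor, was found in 7 CMP cells, 1 of which had 100 TPM of Mpo. Klf1, the erythroid Kruppel-like factor, was found in 9, of which 1 had Mpo, and Car1, an erythroid carbonic anhydrase, in 6, of which 0 had Mpo. Itga2b, the megakaryocyte integrin chain, was found in 10, of which 2 had Mpo. Gata2, a factor of stem, mast and megakaryocyte cells, was less separate: of 21 cells with it, 10 also had Mpo. Car2, of the same list as Car1, was at 100 TPM in 15 cells with Mpo and 11 without. Of the mast cell and basophil genes, Cpa3 was in 9 cells with Mpo and 1 without, and Hdc in 3 and 2. Ms4a2 and Mcpt8 were each in 3 cells with Mpo and 0 without.

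Mpo was not exclusive of monocyte genes at this stage. Irf8, the factor of monocyte and dendritic fate, was at 100 TPM in 14 CMP cells, and all 14 had 100 TPM of Mpo. The same was true of the 12 cells with F13a1, the factor XIII A chain gene of monocytes, the 14 with Ly86, which encodes MD-1, and the 17 with Ms4a6c. Spi1 was at 100 TPM in 25 cells, 23 of them with Mpo. Cells with Mpo also had more genes detected: the rank correlation of Mpo with the number of detected genes was 0.74 over CMP cells. That number was not held fixed in these counts, and its part in them was not tested.

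Ly6C-GMP cells had 4.23 log2 units more Mpo than CMP cells by the mean of log2(TPM + 1), the scale of all differences given here, which understates the change of low genes. The ratio of mean TPM was 4.08. A difference of at least 1 log2 unit upwards was found for 15.6% of 12582 genes measured in this comparison, and 11 genes stood further up than Mpo. They included Ms4a3 at 7.07 log2 units, Elane at 6.71, Ctsg at 5.06 and Alas1, the first enzyme of heme synthesis, at 4.53. The gap was 4.62 within run B and 3.46 within run H, and 12 of 45 Ly6C-GMP cells lay above the highest CMP cell.

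Low Mpo in the Ly6C-GMP gate was rare, as 5 of 45 cells were under 10000 TPM. The lowest of them had genes of other stages or lineages at a high level. Cell 2 had 31.7 TPM of Mpo with 10675 TPM of Lyz2 and 25506 TPM of S100a8, genes of maturing myeloid cells, and 2694 TPM of Ngp. Cell 36 had 3215 TPM of Mpo with 40544 TPM of Ngp and 20991 TPM of Camp. Cell 21 had 4397 TPM of Mpo with 2377 TPM of Cpa3 and 3582 TPM of Ms4a2, which are mast cell and basophil genes.

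Between the later progenitors the level moved little. Ly6C+GMP cells were 0.60 log2 units above Ly6C-GMP cells, under the threshold of 1 that 9.87% of 12399 genes passed upwards, with a ratio of mean TPM of 1.26. Without the 4 cells of these labels that stood apart the gap was 0.34. Ly6C-GMP and Ly6C+GMP shared no title run, so label and run cannot be told apart at this step. Proneu cells were 0.47 log2 units above Ly6C+GMP cells, where 2.20% of 12026 genes passed upwards, with a ratio of 1.40. Within run C, the only run with more than 1 cell of both labels, the gap was 0.06 and the ratio 1.11, so most of the difference seen over all cells was not present inside the run.

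Over all cells the median proportion of Elane to Mpo was also higher at each of these labels. Taken within each cell, Elane stood at 58.9% of the Mpo level for the median Ly6C-GMP cell, 78.9% for the median Ly6C+GMP cell and 96.2% for the median proneu cell. The quartiles were 27.2 and 77.4% for Ly6C-GMP, 59.9 and 103.2% for Ly6C+GMP, and 73.6 and 107% for proneu, so the labels overlapped. Within run C it was 98.9% in proneu and 101.4% in Ly6C+GMP, so the last step was not present inside the run. In run A it was 76.2% in Ly6C+GMP. Ly6C-GMP and Ly6C+GMP shared no title run, so label and run cannot be told apart at the first step. Prtn3 stayed near the same proportion, at 14.4, 15.98 and 13.8% of Mpo, and so did Ctsg, at 18.1, 16.6 and 16.3%. Such ratios do not depend on the total of the cell.

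Proneu cells were tight around a high level with 1 exception. Of 22 cells, 21 held 41296 to 61821 TPM of Mpo. Cell 8 held 5647 TPM with 46452 TPM of Elane, 4113 TPM of Prtn3, 5901 TPM of Ctsg and 8329 TPM of Ms4a3. The proneu means of these partners were 43959, 6634, 7675 and 5411 TPM, so none of them was as far below its label as Mpo, although its Prtn3 was the lowest of the 22 cells. That cell also had 11726 TPM of S100a8 and 2099 TPM of Lyz2, with 2634 genes detected against a proneu median of 4204. It carried under 10 TPM of Ngp.

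Mpo was nearly gone in preNeu. All 31 preNeu cells lay below the lowest proneu cell, and the mean of log2(TPM + 1) was 5.36 in preNeu and 15.45 in proneu, a difference of -10.09 log2 units. The mean TPM of proneu was 315 times that of preNeu, a ratio that rests on preNeu cell 22, without which the preNeu mean was 62.8 TPM. Downward differences of at least 1 log2 unit were common in this comparison, at 39.8% of 10991 genes, with a median over all genes of -0.68, but only Ctsg at -11.05 and Srgn, the serglycin proteoglycan of granule packing, at -10.74 stood further down than Mpo. Under median-ratio scaling the Mpo difference was -8.22, with the median of all genes at -0.40.

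In preNeu, 3 cells held 100 TPM or more of Mpo. They held 2826, 757 and 197 TPM, and the next cell held 79.96 TPM. A level of 100 TPM was thus found in 9.68% of preNeu cells (Clopper-Pearson 95% interval 2.04 to 25.8%). Cell 22, the highest, also had 17243 TPM of Elane and 905 TPM of Prtn3 but 2.2 TPM of Ctsg. Cell 19, the next, had 4135 TPM of Elane and 7.2 TPM of Ctsg. In both, Elane was several times Mpo, while in proneu cells the pair stood at about the same level, and Ngp was at 79818 and 110116 TPM.

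The other loss was in tpMo. The mean of log2(TPM + 1) of Mpo was 7.15 in tpMo and 14.99 in Ly6C+GMP, a difference of -7.83 log2 units, where 32.9% of 12057 genes were lower by 1 log2 unit or more, with a median of -0.50. Only Ms4a3 at -7.98 and Nkg7, a granule membrane protein gene, at -7.97 stood further down. The mean TPM of Ly6C+GMP was 16.9 times that of tpMo, of which the mean was 1256 TPM without cell 24. Within run C the difference was -8.24, and 28 of 31 tpMo cells lay below the lowest Ly6C+GMP cell, or 29 with Ly6C+GMP cell 85 left out.

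Unlike preNeu, tpMo cells formed a graded series. Of 31 cells, 21 were under 100 TPM, 3 between 100 and 1000, 5 between 1000 and 10000 and 2 above, so 32.3% had 100 TPM or more (Clopper-Pearson 95% interval 16.7 to 51.4%). The highest, cell 24, had 25347 TPM with 25159 TPM of Elane, and is the cell with 0.5 TPM of Csf1r named above. It also had 882 TPM of F13a1 and 106 TPM of Irf8, but 0.67 TPM of Ccr2 and 0 TPM of Fn1, all of the monocyte list. Cell 18 had 18251 TPM of Mpo with 415 TPM of Csf1r, 764 TPM of Irf8 and 7105 TPM of Lyz2. Cell 3 had 9014 TPM of Mpo with 238 TPM of Csf1r, 548 TPM of Irf8 and 9326 TPM of Lyz2. Cells 18 and 3 thus held Mpo and monocyte transcripts side by side, and cell 24 did so for F13a1 and Irf8. Over all tpMo cells, Lyz2, the lysozyme gene of monocytes and neutrophils, had the lowest rank correlation with Mpo of any gene, -0.84, or -0.83 without cell 24.

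**Figure D3:**
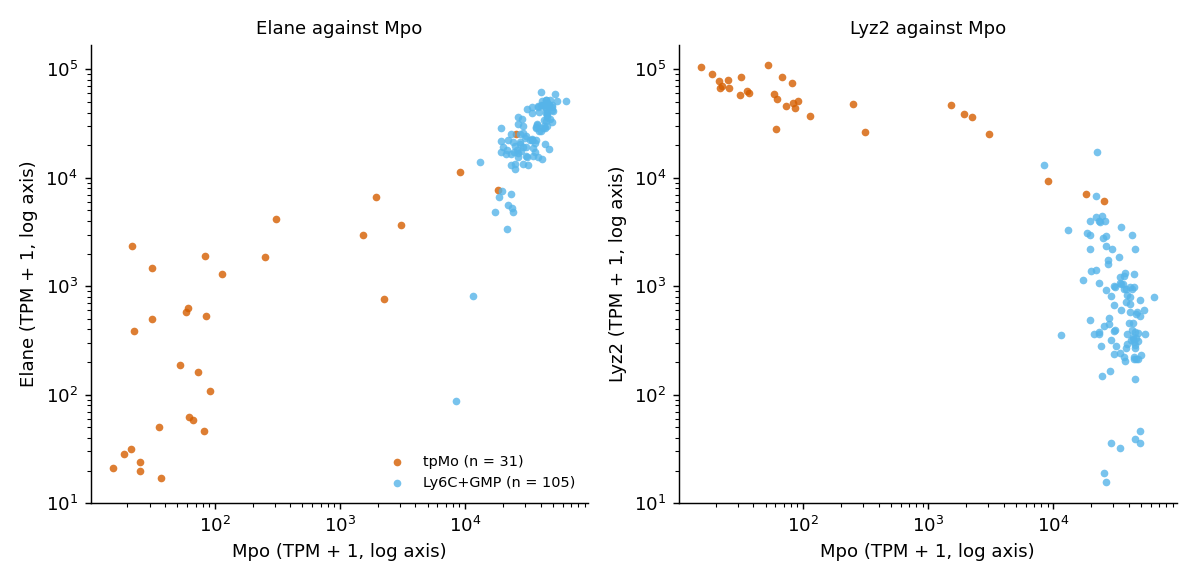
Elane (left) and Lyz2 (right) against Mpo in single tpMo cells (n = 31) and Ly6C+GMP cells (n = 95 of run A and 10 of run C), as TPM + 1 on log axes. Over tpMo cells the rank correlation with Mpo is 0.74 for Elane and -0.84 for Lyz2, and 28 of the 31 lie below the lowest Ly6C+GMP cell in Mpo.

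Set against each other, tpMo had 1.79 log2 units more Mpo than preNeu, where 26.3% of 10826 genes were higher by 1 log2 unit or more, and 4 tpMo cells lay above the highest preNeu cell. That count rests on preNeu cell 22 at 2826 TPM, since the next preNeu cell held 757 TPM and 7 tpMo cells held 1000 TPM or more. The gap was 0.12 under median-ratio scaling, so it does not hold under every scaling. The median tpMo cell had 66.3 TPM and the median preNeu cell 33.3 TPM, and the preNeu median falls in the range of the low CMP cells of run B.

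Most partners of Mpo in the primary granule moved with it at its largest differences, but less closely at the other steps. Counting differences of at least 1 log2 unit among 12 such genes, 11 stood higher for Ly6C-GMP than CMP, with a median of 3.26, where 15.6% of all genes did, and 0 were lower, as 1.29% of all genes were. In preNeu against proneu, where 39.8% of all genes were lower, 10 of 12 were lower, with a median of -7.83, and under median-ratio scaling 9 were lower and 1 higher. In tpMo against Ly6C+GMP, where 32.9% of all genes were lower, 9 of 12 were lower, with a median of -6.12, and 2 were higher. In Ly6C+GMP against Ly6C-GMP, where Mpo was under the threshold, 6 were higher and 1 lower, and 9.87% of all genes were higher. The same held in proneu against Ly6C+GMP, with 5 higher and 1 lower, and 2.20% of all genes higher. In tpMo against preNeu, with Mpo at 1.79, 6 were higher and 3 lower, and 26.3% of all genes were higher. Cd63, a granule membrane tetraspanin, was the main member to stay in preNeu, at 847 ± 601 TPM against 1815 ± 760 TPM in proneu. Ctsc, the protease that activates the granule serine proteases, ran the other way in tpMo, at 843 ± 474 TPM against 178 ± 175 TPM in Ly6C+GMP.

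The endoplasmic reticulum folding genes tracked the high and low phases of Mpo. Of 8 genes, 7 stood higher for Ly6C-GMP than CMP, with a median of 2.52, against 15.6% of all genes. All 8 were lower in preNeu than in proneu, with a median of -5.98, against 39.8% of all genes. All 8 were also lower in tpMo than in Ly6C+GMP, with a median of -3.01, against 32.9% of all genes. Hspa5, the chaperone BiP, averaged 126 ± 167 TPM in preNeu and 1640 ± 764 TPM in proneu. Calr, calreticulin, averaged 28.6 ± 135 TPM in preNeu and 515 ± 358 TPM in proneu. All 8 were higher in tpMo than in preNeu, as 26.3% of all genes were, with a median of 2.62, or 7 with a median of 1.56 under median-ratio scaling.

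Heme synthesis was represented by 1 gene at high level. Alas1 averaged 244 ± 413 TPM over CMP cells, 1044 ± 796 TPM over Ly6C-GMP, 1728 ± 920 TPM over Ly6C+GMP and 2297 ± 1049 TPM over proneu cells. It averaged 285 ± 491 TPM over tpMo and 640 ± 590 TPM over preNeu cells. It thus stayed higher in preNeu relative to proneu than Mpo did, with a difference of -3.36 log2 units against -10.09 for Mpo. Of the 11 genes of heme synthesis and transport, 4 stood higher and 0 lower for Ly6C-GMP than CMP, where 15.6% of all genes stood higher, though 1 did so under median-ratio scaling. In preNeu against proneu, 6 of 10 measured were lower, or 5 under that scaling, where 39.8% of all genes were lower. Alas2, the erythroid form of the first enzyme, was at 1 TPM or more in 1 of 47 CMP cells and 0 of 22 proneu cells.

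The NADPH oxidase, source of the peroxide that the enzyme uses, ran against Mpo at the last step. Of its 6 genes, 5 were higher in preNeu than in proneu, with a median of 1.77, where 3.58% of all genes were higher by 1 log2 unit or more. Cybb, the catalytic subunit, averaged 1253 ± 664 TPM in preNeu and 118 ± 168 TPM in proneu. Secondary granule genes did the same: 9 of 11 were higher in preNeu than in proneu, with a median of 10.37. In tpMo against Ly6C+GMP, 2 oxidase genes were higher and 1 lower, where 3.19% of all genes were higher.

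Of the 14 regulators, none passed 1 log2 unit on the side of Mpo in all 3 of Ly6C-GMP against CMP, preNeu against proneu and tpMo against Ly6C+GMP. Cebpa, a factor of early granulocyte fate, was detected in 8 of 47 CMP, 14 of 45 Ly6C-GMP and 3 of 22 proneu cells, so it was hardly sampled. Spi1 was 2.56 log2 units higher in Ly6C-GMP than in CMP but nearly level between tpMo and Ly6C+GMP, with a difference of -0.02. Myb, a factor of progenitor growth, differed by 0.47 between Ly6C-GMP and CMP, by -4.16 between preNeu and proneu and by -4.52 between tpMo and Ly6C+GMP. Cebpe, a factor of the secondary granule stage, was 3.79 log2 units higher in Ly6C-GMP than in CMP and 1.77 higher in preNeu than in proneu, where Mpo was lower. Irf8 differed by -5.67 between proneu and Ly6C+GMP over all cells, against 0.47 for Mpo. Nearly all proneu cells were in run C, where Irf8 was already low in most Ly6C+GMP cells. It reached 373 TPM in cell 96 of that run but was at 0 in most of its other Ly6C+GMP cells, and proneu averaged 1.08 TPM. The Irf8 difference inside the run was not tested.

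Other animal heme peroxidases were near 0. Lpo, lactoperoxidase, which lies 2.02 kb from Mpo, reached 1 TPM in 1 of 45 Ly6C-GMP cells, 5 Ly6C+GMP cells and 4 of 22 proneu cells, and in no cell of the other labels. Its mean was 1.72 ± 3.76 TPM in proneu. Epx, the eosinophil peroxidase gene 59.6 kb away, reached 1 TPM in no cell, and Duox1, Duox2 and Pxdn were listed at 0 in every cell. Gm11505, an annotated antisense gene inside Mpo at chr11:87795784-87801144 on the minus strand, was listed with 196 TPM on average in proneu and 0.09 TPM in preNeu. The library method does not mark strand, so its reads and those of Mpo cannot be told apart.

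**Figure D4:**
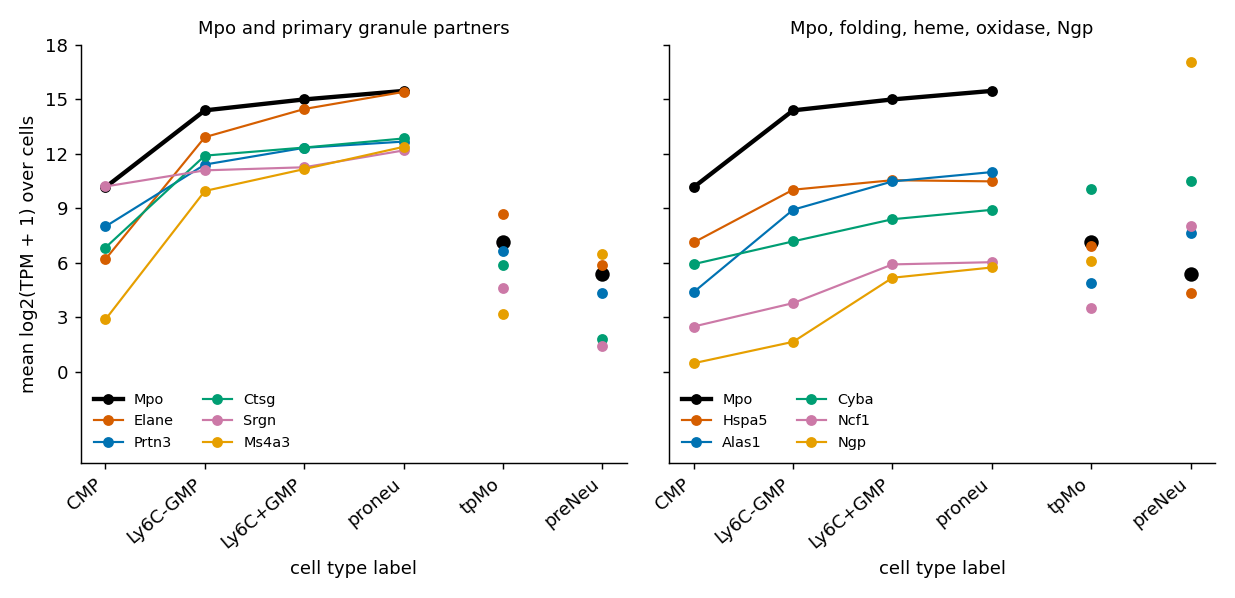
Mean log2(TPM + 1) over the cells of each label for Mpo with primary granule partners (left) and with Hspa5, Alas1, 2 oxidase genes and Ngp (right); lines join the CMP to proneu labels, and tpMo and preNeu stand alone. In preNeu Mpo is at 5.36 while Ngp is at 17.07 and Alas1 at 7.63.

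Within each label, Mpo was set against every gene detected in at least 50% of its cells with a mean of at least 10 TPM, by Spearman's rho over cells. These correlations describe cells of 1 sample, which share library preparation and the closed sum of TPM, and carry no p. In CMP, 74 of 2322 genes (3.19%) had a rho of at least 0.5 and 9 (0.388%) of at most -0.5. The highest were Ctsg at 0.87 and Prtn3 at 0.85. With predicted and ribosomal protein genes passed over, here and in the other labels, Emb, Atp8b4, Glipr1, Cd53, Lcp1, Elane, Alas1 and Ms4a6c followed at 0.78 to 0.66. The lowest were Vamp5 at -0.70, Apoe at -0.63, Malat1 and Car2 at -0.58, and Gata2 and Bcl11a at -0.56. With the number of detected genes held, 14 genes stayed at 0.5 or above, and Ctsg and Prtn3 were at 0.75 and 0.73.

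In Ly6C-GMP, 24 of 3341 genes (0.718%) reached 0.5, and 10 genes led the list. Elane was at 0.77, Ms4a3 at 0.74, Prtn3 at 0.68 and Ctsg at 0.66. Gstm1, a glutathione transferase, Lta4h, leukotriene A4 hydrolase, Prss57, a granule serine protease, Rgcc, Hspa5 and Srgn followed at 0.64 to 0.59. On the lower side 4 genes (0.120%) were at -0.5 or below, among them S100a10 at -0.58, Vim at -0.54 and Snx10 at -0.51. Without the 3 cells that stood apart Elane was at 0.75 and S100a10 at -0.53.

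In Ly6C+GMP the list had granule genes at its upper end and monocyte genes among others at its lower end. On the upper side, 23 of 4077 genes (0.564%) reached 0.5, led by Elane at 0.76, Srgn and Nkg7 at 0.68, Prtn3 at 0.65, Cd63 at 0.64 and Ms4a3 at 0.63. On the lower side, 21 genes (0.515%) reached -0.5, among them Ms4a6c at -0.65, Irf8 at -0.61 and F13a1 at -0.60. The lowest was Tmsb10 at -0.66, and Sod1 at -0.64, Lat2 at -0.63 and Lgals1 at -0.61 were near it, none of the monocyte list. Cd34, of the stem cell list, was at -0.53. Of the 6 monocyte markers that passed the filter, 5 were at -0.5 or below, with a median of -0.56. Irf8 thus stood at 0.60 with Mpo in CMP and at -0.61 in Ly6C+GMP. In run A it was at -0.54 and in the 10 cells of run C at -0.53, whereas F13a1 was at -0.58 in run A and 0.32 in run C. Most of those 10 cells had 0 TPM of Irf8, so its run C value rests on few cells. Several other genes were weaker in run C than in run A. Nkg7 was at 0.27 against 0.66, Cd63 at 0.08 against 0.61 and Ms4a6c at -0.14 against -0.62. Prtn3 and Ctsg went the other way, at 0.61 and 0.70 in run C against 0.60 and 0.53 in run A.

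In proneu the granule partners no longer varied with Mpo. Of the 11 that passed the filter, 0 reached 0.5, with a median of -0.08, and Elane was at -0.18. The genes at the top were Trim11 at 0.75, Kars, lysyl-tRNA synthetase, and Cd24a, a surface glycoprotein, at 0.68, with Hspa5 at 0.63. With 22 cells, 59 of 3399 genes (1.74%) reached 0.5, and 28 (0.824%) reached -0.5, among them Rpa3, a replication protein A subunit, at -0.68. Mpo itself spanned a narrow range there, as given above.

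In tpMo the granule genes moved with Mpo again. Of 2168 genes, 32 (1.48%) reached 0.5 and 18 (0.830%) reached -0.5. Ctsg was at 0.77, Elane at 0.74, Prtn3 at 0.73, Gstm1 at 0.69, Srgn at 0.67 and Alas1 at 0.58. Below Lyz2 at the other end came Fn1, fibronectin, at -0.73, Fgr, a Src-family kinase, at -0.71 and Ms4a6c at -0.64. Mpo was also at 0.63 with the number of detected genes, and with that number held Ctsg was at 0.60, Elane at 0.56 and Lyz2 at -0.73. In preNeu, 7 of 1310 genes (0.534%) reached 0.5, among them Elane at 0.57, and Cebpe, at -0.51, was the 1 gene (0.0763%) at -0.5 or below, though it was at 0.031 after median-ratio scaling.

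Across labels the same few genes returned. Elane was at 0.5 or above in 5 of the 6 labels, all but proneu, and Prtn3, Ctsg, Alas1 and Hspa5 in 4. In preNeu, however, 28 of the 31 cells ranked held only 10.6 to 79.96 TPM of Mpo, with a median of 25.5 TPM of Elane. Whether such low values are the cells' own transcript was not tested. On the lower side, Ms4a6c, S100a10, Tmsb10, Vim and Fcer1g were at -0.5 or below in 2 labels each.

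**Figure D5:**
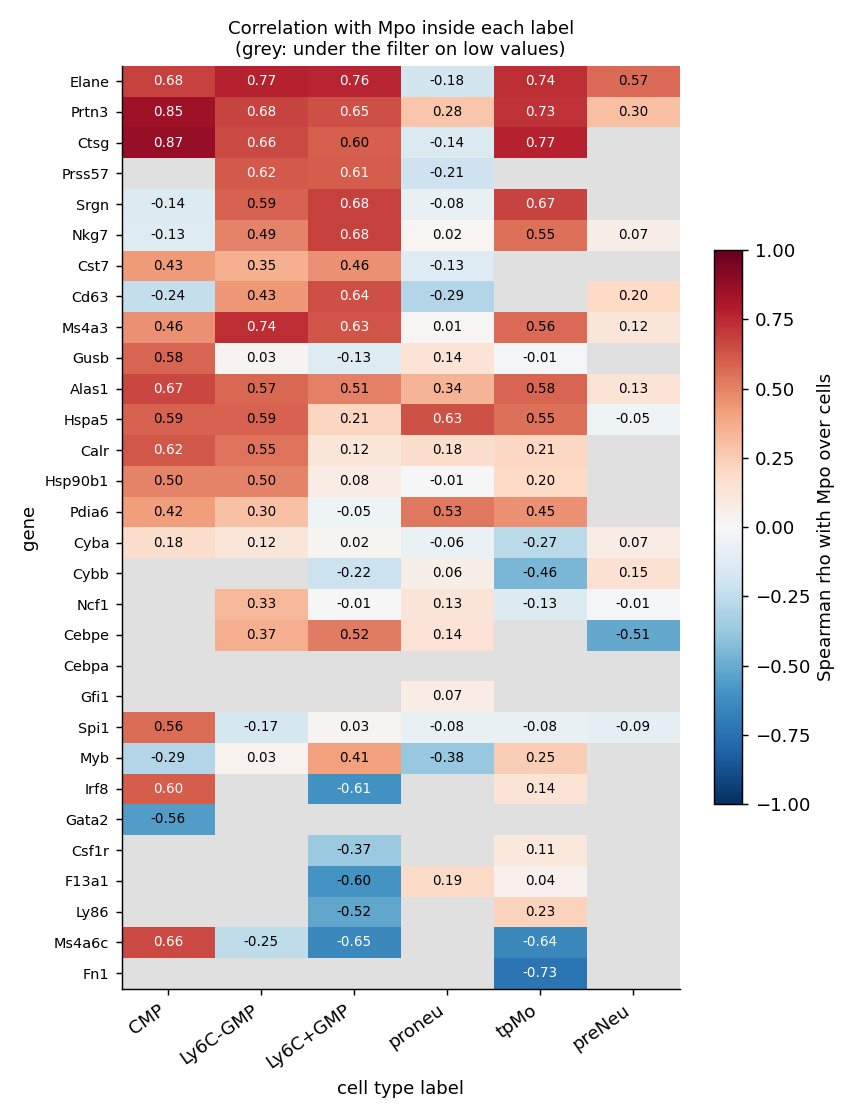
Spearman's rho with Mpo over the cells of each label for 30 genes of the lists; red is positive, blue is negative and grey marks genes under the filter on low values. Elane is at 0.57 or above in 5 labels and at -0.18 in proneu, and Irf8 is at 0.60 in CMP and -0.61 in Ly6C+GMP. In preNeu, 28 of the 31 cells ranked held under 100 TPM of Mpo.

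The course of the mean log2(TPM + 1) over 9 groups, each a label within a title run with at least 10 cells, was nearest to that of Mpo for Prtn3, with Pearson's r of 0.993. Rfc1, a replication factor C subunit, and Edem2, a lectin of endoplasmic reticulum quality control, followed at 0.988, then Ctsg at 0.986. Rabgap1l, Gsto1, Manf, a secreted endoplasmic reticulum stress factor, Anapc16, Fndc3a and Slc25a39 were at 0.983 to 0.981. Some of these differ little in mean TPM between labels, such as Rfc1 at 50.4 ± 78.9 TPM in CMP and 72.5 ± 63.2 TPM in proneu. Values this high were not rare, since 7.65% of 5631 genes had an r of at least 0.9 over these groups, and 1 of the 10 was also among the 10 nearest over the 6 label means. Elane, which was at a rho of 0.5 or above in 5 labels, was 702nd by this measure, at 0.869.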

How the data were processed

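Cells were sorted singly into the labelled gates, and cDNA was made by SMART-seq2 with Nextera XT libraries, per the labels' protocols. The authors deposited 1 table of TPM values per gene symbol and cell. RSEM 1.2.19 and GRCm38 are named in the submitters' processing notes; the sources used here do not give the aligner, annotation or filters. Each column was matched to its sample by title, and 0 columns were left over. Column totals ran from 998703 to 1000000. TPM keeps no read depth, and an abundant transcript lowers all others.

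No cell was left out and doublets were not called. A gene counted as detected at 1 TPM. Differences are of mean log2(TPM + 1), called from 1 log2 unit, over genes whose mean reached 1 TPM in either label. Correlations used genes detected in at least 50% of the cells with a mean of at least 10 TPM. Named genes were the 10 highest and 10 lowest correlations per label once predicted and ribosomal protein genes were passed over, the 10 nearest courses and list members; text names some of them. Gm11505, Ngp and the cells given singly were picked after their values were seen. Members, lists and tests were chosen with earlier results of these data known. Alternatives were pseudocounts, median-ratio scaling, renormalising without 52 genes, title runs, Pearson's r, partial correlation and filters. The functions were tested on simulated data. Python 3.11.15 was used. Individual values of 2 genes of the lists are not reported here.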

Additional observations from a re-analysis of the deposited data

How the results depend on the processing

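Of 53 alternative values for the 6 differences of Mpo between labels, 50 stayed within the spread between cells. The 3 that moved were -8.30 for the log2 ratio of mean TPM and -8.22 under median-ratio scaling in preNeu against proneu, and -4.08 for the log2 ratio of mean TPM in tpMo against Ly6C+GMP. Shares of cells with Mpo were 100% at 1 TPM and moved at 100 TPM to 70.2% in CMP, 32.3% in tpMo and 9.68% in preNeu. The share of genes at a rho of 0.5 or more, and their number, depended on the measure in 16 of 36 alternatives. For CMP it was 5.60% by Pearson's r, 0.603% with the number of detected genes held, 1.45% (125 genes) without the filter, 6.68% in run B alone and 6.46% in run H alone, against 3.19%. For Ly6C-GMP it was 5.06% by Pearson's r, 1.497% in run B and 4.07% in run H, against 0.718%. For Ly6C+GMP it was 0.245% by Pearson's r and 6.06% in the 10 cells of run C, against 0.564%. For proneu it was 7.002% by Pearson's r and 1.52% of 6633 genes without the filter, against 1.74% of 3399, so the number of genes grew by over 1.5 times although the share did not. For tpMo it was 0.738% with detected genes held, 0.554% under median-ratio scaling and 1.14% (74 genes) without the filter, against 1.48%, and for preNeu 0.324% (16 genes) without the filter, against 0.534%. Of 720 alternative correlations of named genes 651 stayed within 0.2, and 3 changed sign: F13a1 in Ly6C+GMP at 0.32 in run C, Cox19 in proneu at 0.068 by Pearson's r and Cebpe in preNeu at 0.031 under median-ratio scaling. The number of genes with a course like that of Mpo was 1078 over the 6 label means, against 431. The list counts did not move without the filter on low values. The cause of these shifts was not tested. Leaving out the cells that stood apart was chosen after seeing the data and moved no difference beyond the spread between cells. Median-ratio scaling moved the median of all genes by 0.29 in preNeu against proneu, 0.11 in tpMo against Ly6C+GMP and -0.16 in tpMo against preNeu. No paired analysis was possible because each label counts as 1 sample and no test was made. Depth per cell is unknown, so a low value cannot be given a counting error.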
